A study of Mus musculus with 8 samples.

Results

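The 7 mouse genes examined here encode receptors for myeloid growth factors: *Csf1r*, *Csf2ra*, *Csf2rb*, *Csf2rb2*, *Csf3r*, *Flt3* and *Kit*. Binding of the transcription factors PU.1 and CEBPA was described at each. They were chosen by name, and a peak was assigned to a gene when its centre lay in the gene body or within 20 kb of it, in the GENCODE annotation of the mm10 (GRCm38) assembly. By this rule 39 of the 67673 listed peaks belonged to these 7 of 21951 protein-coding genes. The cells were X18.1.1, a murine acute myeloid leukaemia (AML) line that arose after irradiation. One copy of *Pu.1* is deleted in X18.1.1, and the other encodes a protein with a substitution in its DNA-binding domain and a deletion in its PEST domain. Both lines compared here carry these lesions. The PU.1- line is a single clone transduced with an empty retroviral vector (EV). The PU.1+ line is a single clone transduced with PuER, in which wild-type PU.1 is fused to an oestrogen receptor domain that responds to 4-hydroxytamoxifen (OHT), expressed from an MSCV-puro retrovirus. OHT was added at 100 nM, for 2 h, to the cells of either line. The PU.1 antibody recognises the mutant protein as well as PuER, so a PU.1 peak in PU.1+ cells may come from either protein. ChIP-Seq, the sequencing of DNA fragments that an antibody pulls down together with its target protein, was carried out once per antibody and line. There were therefore no replicates, no test between the lines could be made, and the exact 95% intervals given for shares cover counting error only. Over the whole genome, the PU.1- and PU.1+ lists held 5288 and 15683 peaks of PU.1, and 26119 and 20583 of CEBPA. Every peak was 400 bp wide and had no height. A peak is called shared where it overlapped, by at least 1 bp, a peak of the same antibody in the other line, gained where it was listed in PU.1+ alone, and lost where it was listed in PU.1- alone. These words describe the lists and not the amount of binding. The depth of the libraries is unknown, and a locus without a listed peak may still be bound below the calling threshold.

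These receptors carry the signals that keep myeloid progenitors alive, dividing and maturing. *Csf2ra*, *Csf2rb*, *Csf2rb2* and *Csf3r* encode cytokine receptor chains, which have no kinase of their own and signal through associated JAK kinases to STAT factors. *Csf1r*, *Flt3* and *Kit* encode receptor tyrosine kinases of a common structural class. PU.1 is an ETS-family transcription factor that recognises purine-rich DNA around a GGAA core, and CEBPA is a basic leucine zipper factor. Both are required for normal myeloid differentiation, and several of the receptor genes are textbook targets of one or both.

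The sequences on which the description turns are given first. They were read from the GRCm38 reference in the 5′ to 3′ direction on the strand of the gene, and capitals mark motif matches on either strand: GGAAGT (ETS core), GAGGAAGT (PU.1-type), CAGGAAGT or CCGGAAGT (ETS1-type), TTGCNNAA (CEBP) and TGTGGT or TGCGGT (RUNX). The PU.1-type and ETS1-type words contain the ETS core. The first set holds gained PU.1 peaks with a match within 40 bases of the centre, and shows PU.1-type and CEBP sites side by side at *Csf2rb* and *Flt3*.
Csf2rb, 0.2 kb inside the gene, chr15:78325910-78325989, plus strand: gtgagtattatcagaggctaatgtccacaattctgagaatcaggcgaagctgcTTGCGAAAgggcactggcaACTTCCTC
Csf2rb, 4.7 kb upstream, chr15:78321005-78321084, plus strand: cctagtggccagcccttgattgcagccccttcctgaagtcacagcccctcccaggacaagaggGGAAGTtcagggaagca
Csf2rb, 44.4 kb from the start, chr15:78370074-78370153, plus strand: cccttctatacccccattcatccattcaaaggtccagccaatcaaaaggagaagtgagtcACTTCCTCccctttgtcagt
Csf3r, 5.3 kb upstream, chr4:126019184-126019263, plus strand: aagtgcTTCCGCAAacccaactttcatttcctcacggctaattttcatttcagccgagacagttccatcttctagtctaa
Flt3, 7.7 kb inside the gene, chr5:147392779-147392858, minus strand: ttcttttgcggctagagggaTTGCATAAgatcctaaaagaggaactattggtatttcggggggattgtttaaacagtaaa
Flt3, 37.3 kb inside the gene, chr5:147363197-147363276, minus strand: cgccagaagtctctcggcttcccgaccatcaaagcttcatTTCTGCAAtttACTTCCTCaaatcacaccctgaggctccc

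The second set holds the shared PU.1 peaks, 1 at *Csf3r*, 1 at *Flt3* and 2 at *Csf2ra*. At *Csf3r* and *Flt3* the stretch was extended beyond the centre so that it reaches CEBP sites under the overlapping CEBPA peak. A further CEBP site at *Csf3r*, at -145 bp from the PU.1 centre of PU.1+, lies outside the printed stretch.
Csf3r, 6.6 kb upstream, chr4:126017841-126018140, plus strand: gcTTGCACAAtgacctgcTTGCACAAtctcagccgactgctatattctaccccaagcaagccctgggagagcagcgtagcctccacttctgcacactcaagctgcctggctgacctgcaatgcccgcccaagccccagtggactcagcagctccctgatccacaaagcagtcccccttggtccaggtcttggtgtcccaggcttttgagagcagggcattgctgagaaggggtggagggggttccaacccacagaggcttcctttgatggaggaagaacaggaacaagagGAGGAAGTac
Flt3, 11.3 kb inside the gene, chr5:147389077-147389246, minus strand: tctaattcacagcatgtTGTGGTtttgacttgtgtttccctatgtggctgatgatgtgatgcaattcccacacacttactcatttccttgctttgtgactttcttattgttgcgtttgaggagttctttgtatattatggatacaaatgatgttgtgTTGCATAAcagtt
Csf2ra, 0.7 kb inside the gene, chr19:61227713-61227792, minus strand: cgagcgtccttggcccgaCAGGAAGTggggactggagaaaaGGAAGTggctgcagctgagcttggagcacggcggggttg
Csf2ra, 16.4 kb upstream, chr19:61244831-61244910, minus strand: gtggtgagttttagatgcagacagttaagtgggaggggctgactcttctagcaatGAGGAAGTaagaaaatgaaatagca

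The last set holds a gained PU.1 peak downstream of *Csf2rb2*, where CEBPA peaks of both lines overlapped it, and the single CEBPA peak at *Kit*.
Csf2rb2, 27.1 kb from the start, chr15:78278493-78278587, minus strand: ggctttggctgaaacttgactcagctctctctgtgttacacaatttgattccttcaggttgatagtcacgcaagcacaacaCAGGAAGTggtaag
Kit, 40.9 kb inside the gene, chr5:75615767-75615846, plus strand: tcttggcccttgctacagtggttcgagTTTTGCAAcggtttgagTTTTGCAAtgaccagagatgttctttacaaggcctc

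At the 7 loci together the PU.1 list rose from 5 peaks in PU.1- to 14 in PU.1+, whereas the CEBPA lists held 10 peaks in each line. Of the 7 genes, 6 had at least 1 PU.1 peak in PU.1+, beside 41.4% of all protein-coding genes, and *Kit* had none in either line. Of the PU.1 peaks 1 was lost, 4 were shared and 10 were gained. The lost peak was 1 of 5 in PU.1- (95% interval 0.505 to 71.6%), beside 43.8% over the whole PU.1- list. The shared peaks made up 28.6% of the 14 in PU.1+ (4 of 14, 8.39 to 58.1), beside 18.9% over the whole PU.1+ list. Both intervals included the share of the whole list. The gained peaks made up 71.4% of the 14 peaks (10 of 14, 95% interval 41.9 to 91.6), beside 81.1% over the whole PU.1+ list. The ratio of PU.1 peaks between the lines was 2.8 at these loci and 2.97 over the whole lists, so the gain in number was close to that of the genome. For CEBPA, 8 peaks were shared, 2 were lost and 2 were gained. The shared peaks were 8 of 10 in PU.1+ (95% interval 44.4 to 97.5%), beside 87.9% over the whole list. The gained peaks were 2 of 10 in PU.1+ (2.52 to 55.6%), beside 12.1%. The lost peaks were 2 of 10 in PU.1- (2.52 to 55.6%), beside 30.7%. Each of these CEBPA intervals included the share of the whole list. The ratio of CEBPA peaks between the lines was 1.0 at the receptor loci and 0.788 over the whole lists.

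**Figure D1:**
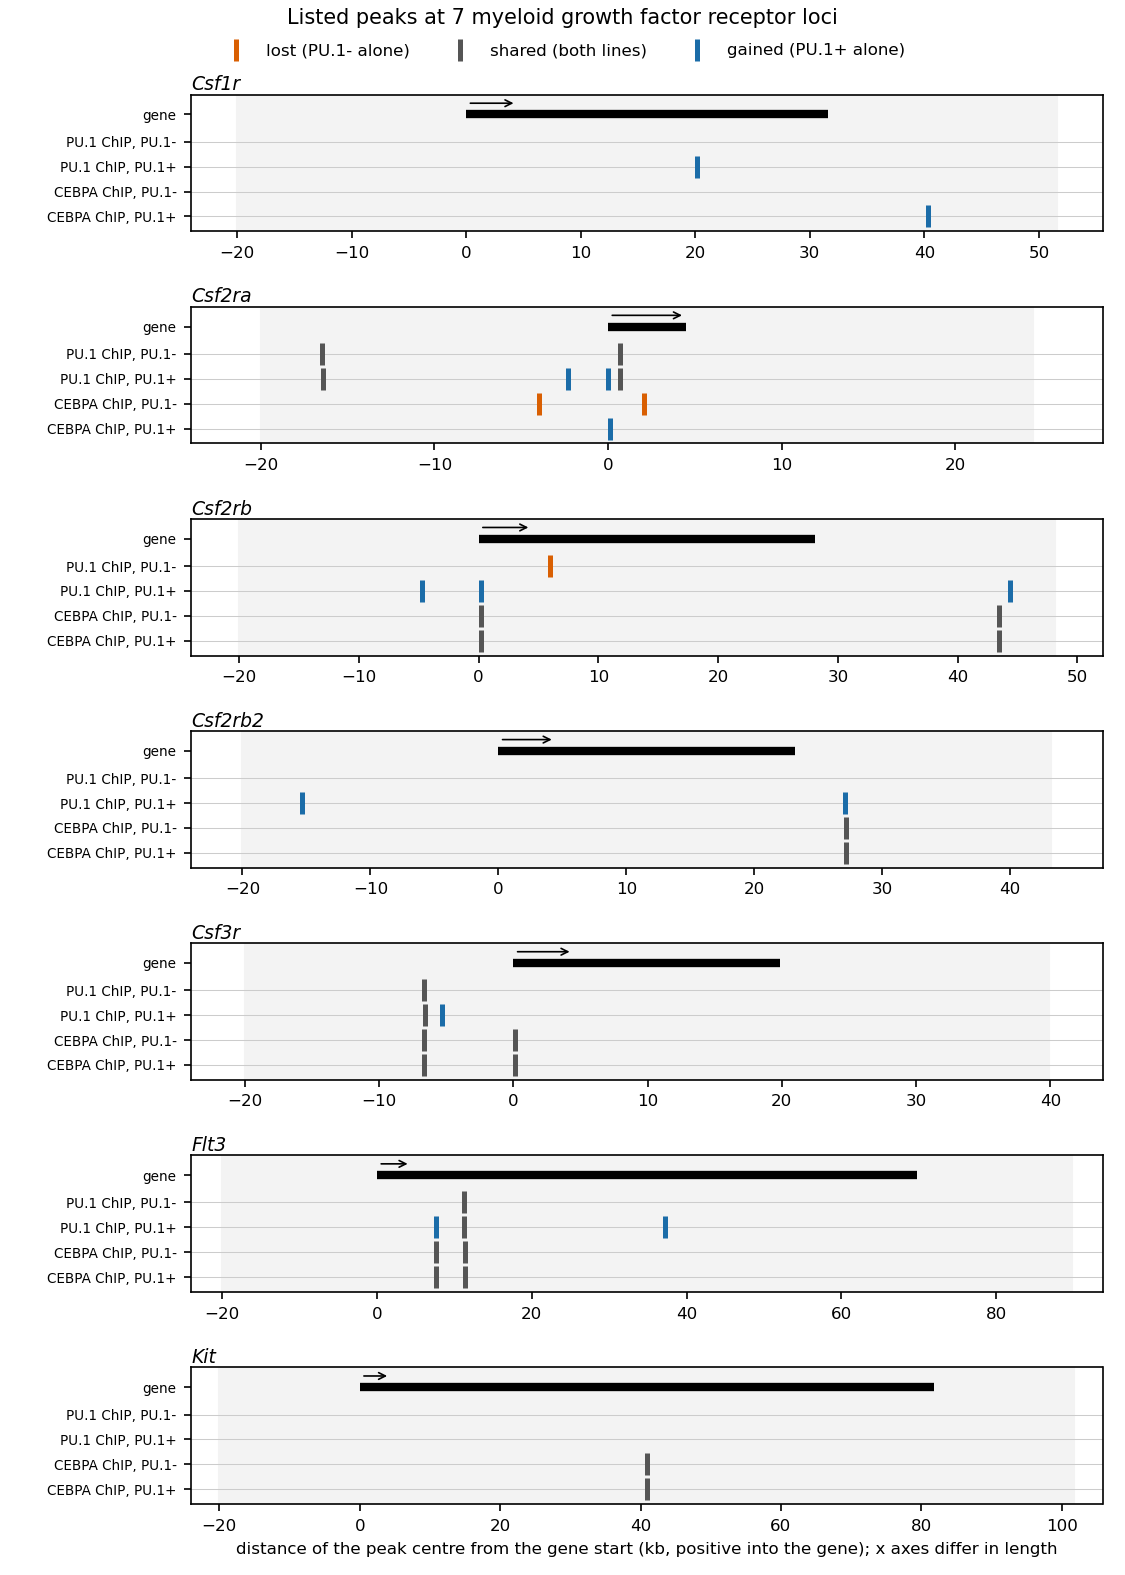
Peaks at the 7 receptor loci by the distance of their centre from the gene start (x axis, kb, positive into the gene), with 1 row per antibody and line; the black bar is the gene, the grey area the window, and colours give the class. Blue marks, for gained peaks, stand in the PU.1 row of 6 genes, and the PU.1 rows of *Kit* are empty.

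**Figure D2:**
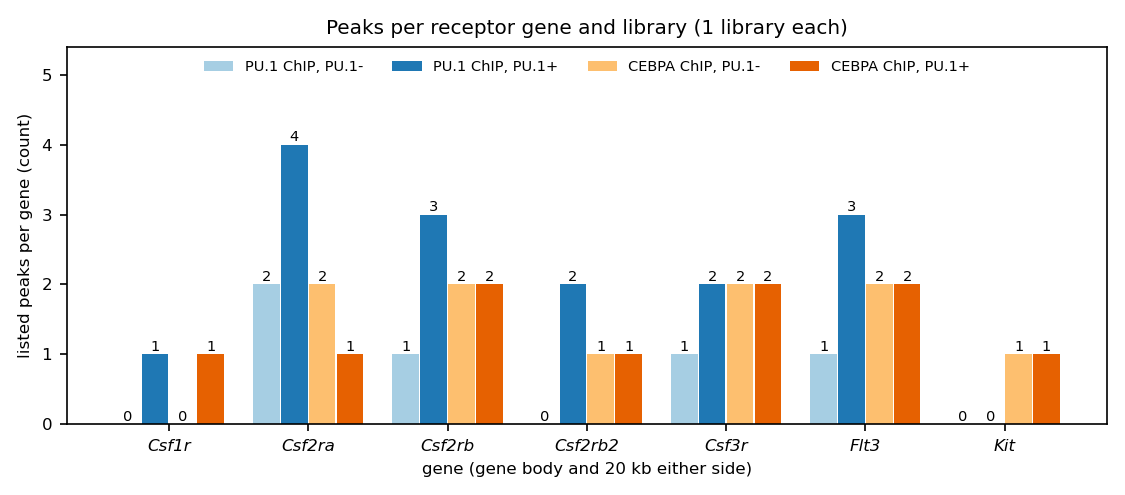
Number of listed peaks (y axis) at each receptor gene (x axis) for the 4 libraries, 1 library per bar. PU.1 peaks in PU.1+ range from 0 at *Kit* to 4 at *Csf2ra*, and CEBPA peaks from 0 to 2 in PU.1- and from 1 to 2 in PU.1+.

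*Csf2ra* encodes the α chain that gives the receptor for GM-CSF its specificity. The gene is short (4.47 kb, chr19:61223957-61228429, minus strand) and had the most PU.1 peaks of the 7, with 2 in PU.1- and 4 in PU.1+. A count of 4 or more PU.1 peaks in PU.1+ was found at 4.95% of all protein-coding genes. One peak was shared and lay in intron 1, 694 bp from the gene start in PU.1- and 676 bp in PU.1+. It held a pair of ETS cores, 1 of them ETS1-type, within 40 bases of its centre. Next to it, a gained PU.1 peak was centred 19 bp from the gene start (chr19:61228210-61228609), in the untranslated part of exon 1, and overlapped by 331 bp a CEBPA peak that was itself gained (chr19:61228141-61228540). This was the one place among the 7 loci where peaks of both factors were gained. None of the motifs defined above occurred anywhere in the 400 bp of that PU.1 peak. The shorter GGAA occurred at 3 places in its central 80 bp.

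Upstream of *Csf2ra*, a gained PU.1 peak lay 2.3 kb from the start (chr19:61230544-61230943). It held none of the motifs defined above, and GGAA at 2 places in its central 80 bp. In the reference 60.5% of its bases were masked as repeats. Parts of it matched 4 other places in the genome over at least 100 bp at 85% identity or more. Lost CEBPA peaks lay in coding exon 6 (chr19:61226172-61226571) and 4.0 kb upstream (chr19:61232229-61232628). The latter matched 13794 other places by the same criterion. How reads with several matches were treated is not given in the sources used here.

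The remaining *Csf2ra* peak, 16.4 kb upstream of the gene and shared (chr19:61244671-61245070 in PU.1+), had a single near copy on chromosome 10 (chr10:51454023-51454369) that agreed at 307 of 342 aligned bases (89.8%). The copy lay under PU.1 peaks of both lines too, in no protein-coding gene, and the nearest annotated transcript start of a protein-coding gene was that of *Gm49339*, 26445 bp away. The central stretch of the copy is printed on the plus strand, beside the *Csf2ra* stretch given above.
Copy of the Csf2ra upstream peak, chr10:51454126-51454208: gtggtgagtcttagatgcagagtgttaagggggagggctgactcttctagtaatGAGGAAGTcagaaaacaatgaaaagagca
Both hold the PU.1-type site. Of 79 aligned bases in this stretch 72 were identical, and the substitution next to the site was A64C, counted from 1 at the 5′ end of the *Csf2ra* stretch. Whether each copy was bound, or reads of 1 copy were placed at both, was not tested. The PU.1 peak of PU.1- at *Csf2ra* was the last of all 4 lists on chromosome 19, whose reference sequence ends 186457 bp beyond it.

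*Csf2rb* encodes the common β chain of the receptors for GM-CSF, IL-3 and IL-5 (chr15:78325752-78353847, plus strand). The PU.1 lists held 1 peak in PU.1- and 3 in PU.1+, none of them shared. The peaks of PU.1+ lay 4.7 kb upstream, 201 bp inside the gene and 44.4 kb from the start, beyond the 3′ end. As many gained PU.1 peaks, 3 or more, were found at 6.8% of all protein-coding genes. The peak at the start of the gene (chr15:78325753-78326152, centre in intron 1) almost coincided with CEBPA peaks of both lines: its centre was 12 bp from that of the CEBPA peak in PU.1+, and they overlapped by 388 bp. The CEBPA centres lay 211 bp inside the gene in PU.1- and 213 bp in PU.1+. Here CEBPA was thus listed in both lines and PU.1 only in PU.1+. The stretch printed above holds a CEBP site at bases 54 to 61 and a PU.1-type site at bases 73 to 80, with 11 bases between the CEBP site and the ETS core. The peak 44.4 kb from the start held a PU.1-type site as well, and the annotated transcript start nearest to it was one of *Tex33*, 18655 bp away (25.8 kb to the outermost start of that gene). A shared CEBPA peak lay 43.4 kb from the start in both lines, also nearer to *Tex33*. The PU.1 peak of PU.1- lay 6.0 kb inside the gene, in intron 2 (chr15:78331547-78331946). It was the only lost PU.1 peak at the 7 loci. It held no match to any of the motifs defined above within 40 bases of its centre, where the shorter GGAA occurred at 1 place. A part of 226 bp matched *Csf2rb2* at 92.0% identity, where no peak was listed.

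*Csf2rb2* encodes a β chain found in the mouse that serves the IL-3 receptor, and lies beside *Csf2rb* in the opposite orientation (chr15:78282507-78305721, minus strand). Its start is a near copy of the start of *Csf2rb*. The *Csf2rb* peak aligned to chr15:78305528-78305920 with 372 of 391 bases identical (95.1%), and no peak of any of the 4 lists overlapped that counterpart. The last 30 bases of the *Csf2rb* stretch and their *Csf2rb2* counterpart, both on the strand of their gene, differ by 1 base.
Csf2rb, chr15:78325960-78325989: tgcTTGCGAAAgggcactggcaACTTCCTC
Csf2rb2, chr15:78305687-78305716: tgcttgtgaaagggcactggcaACTTCCTC
The substitution is C7T, counted from 1 at the 5′ end of this stretch, and it lies in the CEBP site. The counterpart therefore has the PU.1-type site and no CEBP match in any of its bases, while the *Csf2rb* peak has 1 of each. The genes differ here at only 19 of 391 aligned bases, and how their reads were told apart was not tested.

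There were 2 PU.1 peaks assigned to *Csf2rb2*, both of them gained. One was the peak 4.7 kb upstream of *Csf2rb*, which falls in the windows of both genes and is nearer to *Csf2rb*. The other lay beyond the 3′ end, 27.1 kb from the start (chr15:78278408-78278807), and overlapped by 344 bp a shared CEBPA peak. The centres of these PU.1 and CEBPA peaks in PU.1+ were 56 bp apart. Its only ETS match was an ETS1-type site more than 100 bp from the PU.1 centre, between the CEBPA centre and the edge of the peaks.

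*Csf3r* encodes the receptor for G-CSF, the main growth factor of neutrophils (chr4:126024550-126044440, plus strand). It had 1 PU.1 peak in PU.1- against 2 in PU.1+, and 2 CEBPA peaks in each line, all 4 of which were shared. The shared PU.1 peak was centred 6639 bp upstream in PU.1- and 6591 bp upstream in PU.1+. CEBPA peaks of both lines lay over it, centred 6678 bp and 6680 bp upstream. In PU.1+ the centres of the factors were 89 bp apart. The CEBPA centre had a pair of identical CEBP sites, TTGCACAA, 8 bases apart. A PU.1-type site lay at the far end of the stretch printed above, with 266 bases between its ETS core and the nearer CEBP site of the pair. That PU.1-type site was centred 176 bp from the PU.1 centre of PU.1+. It lay outside the PU.1 peak of PU.1- and outside the CEBPA peaks of both lines. A further PU.1 peak, which was gained, lay 5.3 kb upstream (chr4:126019024-126019423) with a CEBP site near its centre, but no CEBPA peak overlapped it. The start of the gene itself had a CEBPA peak of both lines, 109 bp and 98 bp inside, in the untranslated part of exon 1, with no CEBP match within 40 bases of its centre, and no PU.1 peak.

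*Csf1r* encodes the receptor for M-CSF and IL-34, on which monocytes and macrophages depend. It lies on the plus strand of chromosome 18. Neither PU.1 nor CEBPA had a peak there in PU.1-, and each had 1 in PU.1+. The PU.1 peak was 20134 bp from the gene start, in intron 10 of the principal transcript and within an exon of another transcript. It held 1 ETS core 60 bp and 1 CEBP site 124 bp from its centre. The CEBPA peak was 40.3 kb from the start, 8.76 kb beyond the end of the gene. An annotated transcript start of *Hmgxb3* lay 3432 bp from it, and the outermost start of that gene 36.1 kb from it. No peak of any list lay at the start of *Csf1r*. The nearest PU.1 peak in PU.1- was 229 kb from the gene.

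*Flt3* encodes the receptor for FLT3 ligand, which acts on early progenitors and dendritic cell precursors (chr5:147330741-147400489, minus strand). There was 1 PU.1 peak in PU.1- against 3 in PU.1+, and 2 CEBPA peaks in each line, all shared. The shared PU.1 peak occupied exactly the same 400 bp in both lines (chr5:147389027-147389426, intron 1, 11.3 kb inside the gene). It was overlapped by CEBPA peaks of both lines, with the centres 88 bp apart in PU.1+. It had a RUNX site at its centre and no ETS core (GGAAGT), while the shorter GGAA occurred at 2 places in its central 80 bp. The other 2 PU.1 peaks were gained. The peak 7.7 kb inside, also in intron 1 (chr5:147392619-147393018), lay with its centre 19 bp from that of a shared CEBPA peak. It held the CEBP site TTGCATAA without an ETS core (GGAAGT) in its 400 bp, and GGAA at 1 place in its central 80 bp. The peak 37.3 kb inside, in intron 9 of the principal transcript and within an exon of another (chr5:147363037-147363436), held PU.1-type and CEBP sites with 3 bases between the ETS core and the CEBP site, and no CEBPA peak overlapped it. The start of *Flt3* had no peak.

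*Kit* encodes CD117, the receptor for stem cell factor and a marker of immature cells (chr5:75574916-75656722, plus strand). It was the one gene of the 7 without a PU.1 peak in either line. Its single CEBPA peak, in intron 5, had identical coordinates in both lines (chr5:75615607-75616006) and a pair of identical CEBP sites at its centre. The nearest PU.1 peak lay 74.0 kb beyond the end of the gene in PU.1- and 74.1 kb in PU.1+, and CEBPA peaks of both lines overlapped it. No peak of any list lay between 20 and 50 kb from *Kit*.

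PU.1 and CEBPA peaks coincided at 2 receptor genes in PU.1- and at 5 in PU.1+. In PU.1-, 2 of 5 PU.1 peaks overlapped a CEBPA peak (95% interval 5.27 to 85.3%), at *Csf3r* and *Flt3*, beside 57.6% over the whole list. In PU.1+, 6 of 14 did (42.9%, 17.7 to 71.1), beside 29.8% over the whole list. Those 6 lay at *Csf2ra*, *Csf2rb*, *Csf2rb2*, *Csf3r* and *Flt3*. Such a peak was found at 13.6% of all protein-coding genes in PU.1- (2 of 7 receptors) and at 17.1% in PU.1+ (5 of 7). Viewed from CEBPA, 6 of the 10 CEBPA peaks of PU.1+ overlapped a PU.1 peak (95% interval 26.2 to 87.8%), beside 22.7% over that list. Of the 10 gained PU.1 peaks, 3 lay where CEBPA had a peak in PU.1-, at *Csf2rb*, *Csf2rb2* and *Flt3* (95% interval 6.67 to 65.2%, beside 18.1% of all gained PU.1 peaks). The interval for CEBPA in PU.1+ lay narrowly above the share of its whole list, and the other intervals here included theirs. It rests on 10 peaks, and no allowance was made for the number of intervals given. The *Csf2rb* peak among the 6 had a near copy at *Csf2rb2*. Without peaks that have a near copy, PU.1+ kept 9 CEBPA peaks and 5 PU.1 peaks that overlapped CEBPA. No interval was computed for that setting.

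The central 80 bp of the PU.1 peaks in PU.1+ held an ETS core in 6 of 14 (42.9%, 17.7 to 71.1), beside 43.5% of the whole list. A PU.1-type site was found in 4 (28.6%, 8.39 to 58.1, beside 15.2%), at *Csf2ra*, *Flt3* and, in a pair of peaks, *Csf2rb*. An ETS1-type site and a RUNX site were each found in 1. CEBP sites stood in 4 of the 14 (28.6%, 8.39 to 58.1), beside 7.31% of the list, and all 4 belonged to the 10 gained peaks (95% interval 12.2 to 73.8%), beside 6.33% of all gained PU.1 peaks. Only 2 of these 4, at *Csf2rb* and 7.7 kb inside *Flt3*, overlapped a CEBPA peak. None of the 4 shared PU.1 peaks had a CEBP site in this central part (0.0 to 60.2%), beside 11.5% of all shared PU.1 peaks. In their whole 400 bp, the shared peaks at *Csf3r* and *Flt3* held CEBP sites and those at *Csf2ra* held none. CEBP sites stood in 5 of the 14 PU.1 peaks in the central 200 bp, beside 16.6% of the list. In the whole 400 bp the count was 7 of 14, beside 24.9%. The shorter word TTGCNNA stood in 4 of 14 in the central 80 bp, beside 15.5%, a share within the interval given above for TTGCNNAA. Of the CEBPA peaks, 5 of 10 in PU.1- (beside 35.6%) and 6 of 10 in PU.1+ (beside 38.2%) held a CEBP site in the centre. A match describes the letters only.

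**Figure D3:**
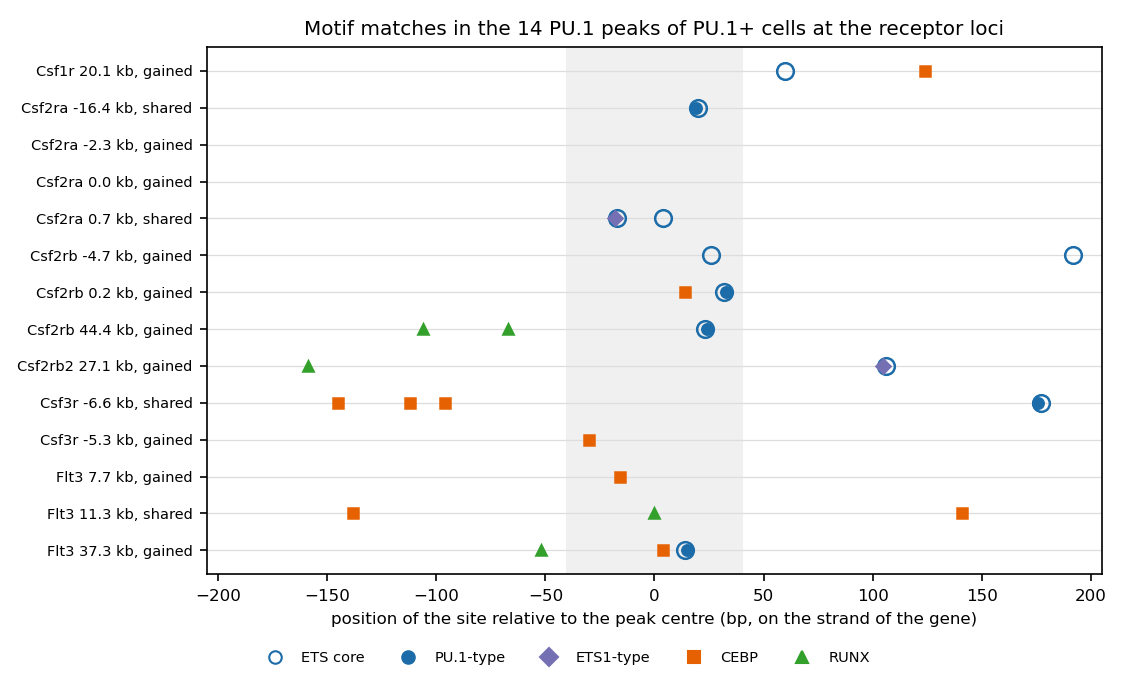
Positions of motif matches relative to the peak centre (x axis, bp, on the strand of the gene) in each of the 14 PU.1 peaks of PU.1+ at the receptor loci (rows), with the central 80 bp shaded and 1 symbol per kind of motif. PU.1-type sites lie within the shaded part in 4 peaks, and both peaks with PU.1-type and CEBP sites in the centre, at *Csf2rb* and *Flt3*, were gained.

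The promoter sequences themselves, 300 bases around the annotated start, were available from RefSeq (GRCm38) for 5 of the 7 genes, not *Csf1r* and *Csf2rb*. Of these 5, only *Csf2rb2* held a PU.1-type site, found in 3.2% of 32851 promoter entries, and only *Flt3* a RUNX site, found in 22.4%. The *Flt3* and *Csf2rb2* entries each held an ETS core (23.8% of entries), and none of the 5 genes had a CEBP site there (10.8%). Peaks overlapped the entry of *Csf2ra* (PU.1 and CEBPA in PU.1+) and *Csf3r* (CEBPA in both lines) and no other.

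Compared with all protein-coding genes by the same rule, a larger share of the receptors had a peak in each of the 4 lists. A PU.1 peak was listed at 4 of 7 receptors in PU.1- (all genes, 23.7%) and at 6 of 7 in PU.1+ (41.4%). A gained PU.1 peak was listed at 6 of 7 (36.7%), a shared one at 3 of 7 (13.4%) and a lost one at 1 of 7 (13.7%). A CEBPA peak was listed at 6 of 7 in PU.1- (56.5%) and at 7 of 7 in PU.1+ (51.3%). By class, a shared CEBPA peak was listed at 5 of 7 (48.3%), a lost one at 1 of 7 (30.1%) and a gained one at 2 of 7 (11.4%). The median number of gained PU.1 peaks was 2 per receptor and 0 per gene. The receptors are longer than most genes, with a median of 28.1 kb against 17.4 kb, so their windows are wider. Per 100 kb of window there were 2.04 gained PU.1 peaks at the receptors and 0.747 at all genes, a ratio of 2.73. For shared PU.1 peaks the values were 0.742 and 0.189, a higher ratio of 3.92. All PU.1 peaks of PU.1- already stood at 0.928 against 0.367. For CEBPA the values were 1.86 against 1.69 in PU.1- and 1.86 against 1.34 in PU.1+. The genes were picked as myeloid receptors in a myeloid cell line, and no test was made of how they stand among other genes active in these cells.

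**Figure D4:**
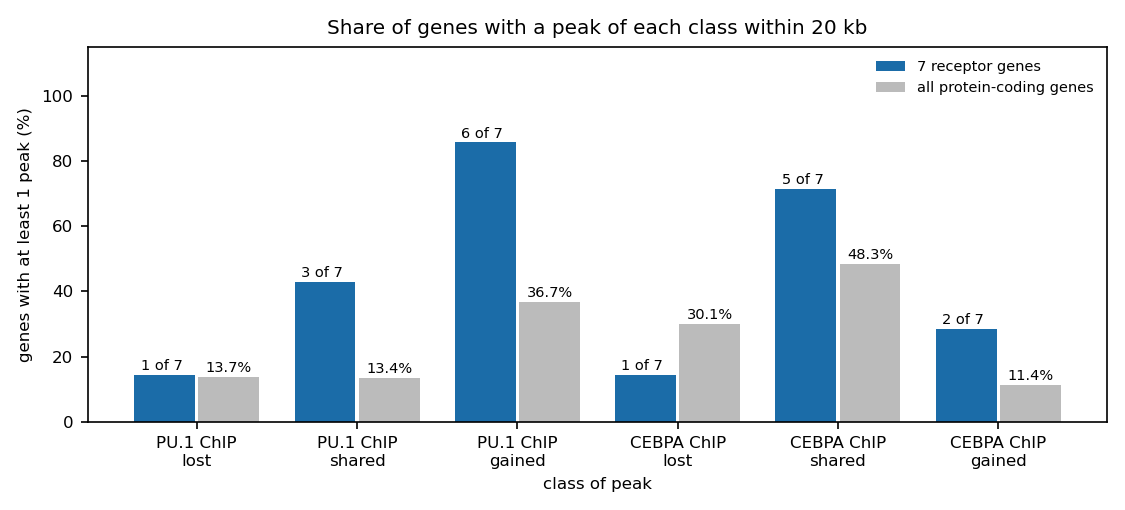
Share of genes with at least 1 peak of each class in their window (y axis, %), for the 7 receptor genes and for all 21951 protein-coding genes. The widest gap between the bars is for gained PU.1 peaks (6 of 7 receptors against 36.7%), and the bars are nearly level for lost PU.1 peaks (1 of 7 against 13.7%). As a ratio of the bars, shared PU.1 peaks stand higher than gained ones (3.2 against 2.33).

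Other genes of these pathways were described from 4 lists, without a test. Of 6 ligands, 3 had a gained PU.1 peak, beside 36.7% of all protein-coding genes, with 2 each at *Csf1*, which encodes M-CSF, and *Kitl*, which encodes stem cell factor, and 1 at *Il34*. None of the 6 ligands had a PU.1 peak in PU.1-, where 23.7% of all protein-coding genes had one. Of 6 related cytokine receptors, 3 had such a peak, 1 each at *Il3ra*, *Il5ra* and *Il6ra*, chains of the receptors for IL-3, IL-5 and IL-6. At *Il6ra*, 4 of the 5 PU.1 peaks of PU.1+ were shared. Of the 2 related tyrosine kinases, *Pdgfra* had 1 and *Pdgfrb* none. Of 24 signalling genes downstream of the receptors, 23 held a gained PU.1 peak, with a median of 2.5 per gene. These genes are long, with a median length of 57.7 kb against 17.4 kb for all protein-coding genes. Per 100 kb of window there were 2.87 gained PU.1 peaks at the signalling genes, 1.19 at the ligands, 0.744 at the related cytokine receptors and 0.603 at the related tyrosine kinases, beside 0.747 over all genes and 2.04 at the 7 receptors. The highest counts were 7 at *Inpp5d*, which encodes the phosphatase SHIP1, and 6 each at *Grb2*, *Gab2*, *Cblb* and *Lyn*, which encode adaptors, a ubiquitin ligase and a SRC-family kinase. Only *Sos1* had none.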

How the data were processed

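Chromatin from the clonal EV (PU.1-) and PuER (PU.1+) lines of X18.1.1 was immunoprecipitated with antibodies against PU.1 and CEBPA and sequenced (1 library each, so n = 1 per group). Per the labels' processing notes the authors used Bowtie2 2.0.6, MACS2 2.0.10 and mm10 (GRCm38), and deposited peak coordinates of each library with no score, count or p-value. The calling threshold and the reason for the uniform 400-bp width are not given in the sources used here. The 4 H3K27Ac and IgG samples of 8, and the microarrays, were not analysed here.

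Peak centres were assigned to 21951 protein-coding genes of GENCODE vM21 (window of 20 kb). Peaks of one antibody overlapping by at least 1 bp were called shared (counted in PU.1+), and the others gained or lost. Motifs were searched on both strands in the central 80 bp. Near copies were sought in the whole reference with BLAST+ 2.17.0 (megablast, at least 100 bp at 85% identity). Intervals are exact (Clopper-Pearson, 95%). Overlap, window and motif steps were tested on simulated data and against bedtools 2.31.1. Python 3.11.15, scipy 1.17.1, Biopython 1.88 and matplotlib 3.10.9 were used.

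The 7 genes, the pathway lists and the motifs were chosen with earlier results of these data known. Named beside the 7 are genes with an annotated transcript start nearer to a peak, and, of each list, the 3 genes with the most gained PU.1 peaks, with ties, and those with none in counts. *Gm49339*, *Sos1*, *Pdgfrb* and the genes of the closing section were named after their values were seen. Alternatives were other overlap rules, windows, gene assignments, motif searches and gene backgrounds, and, added after seeing the data, leaving out peaks with a near copy. Peaks of chromosome 18 are given without sequence.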

Additional observations from a re-analysis of the deposited data

How the results depend on the processing

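Of 91 recomputed values of the comparisons, 68 stayed within 1.5 times of the reported count (or within the interval of the reported ratio) and 23 moved. A change of direction was not scored. Neither overlap alternative moved a class or a PU.1 and CEBPA overlap, and between 4 and 6 receptors had a gained PU.1 peak under every alternative run. With the gene body alone the lists held 3 and 7 PU.1 peaks and 6 and 6 CEBPA peaks in PU.1- and PU.1+, with 2 shared and 5 gained PU.1 peaks, and 1 lost, 5 shared and 1 gained CEBPA peaks. Within 50 kb there were 21 CEBPA peaks in each line (19 shared) and 2 lost PU.1 peaks. Leaving out peaks with a near copy left 3 PU.1 peaks in PU.1-, and 0 PU.1 and 1 CEBPA peaks that were lost; this setting was chosen after seeing the data. The shorter core GGAA was found in 13 of 14 PU.1 peaks of PU.1+ (91.1% of that list) and 4 of 5 of PU.1-, and GGAAGT in 2 of 5 in the central 200 bp or whole peak. CEBP sites stood in 7 of 14 whole PU.1 peaks. The ratio of receptors to all genes was 2.07 for any PU.1 peak of PU.1+ and 2.33 for gained PU.1 peaks, and 2.97 and 2.73 per 100 kb. Against only the genes with any peak the ratios were lower, 1.35 and 1.53. For shared PU.1 peaks the ratio was 3.2, with 3.92 per 100 kb and 2.1 against the genes with any peak. Counting each peak once left 1 PU.1 peak at *Csf2rb2*.

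No paired analysis was possible because each antibody and line had 1 library. The depth of the libraries is unknown, so differences in depth or threshold between the libraries and differences in binding cannot be told apart. The lists have no heights, so a shared peak that grew or shrank was not detectable. A gene's window does not show which gene a peak acts on.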

Other observations

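Peaks between 20 and 50 kb from the genes were read as well. *Csf1r* had CEBPA peaks of both lines 25.8 kb and 23.3 kb upstream in PU.1-, and these were nearer to its start than to any other, while no PU.1 peak lay in that zone. *Csf3r* had a gained PU.1 peak 20.2 kb upstream, just beyond the window, and another 61.7 kb from its start, 1444 bp from an annotated transcript start of *Oscp1* and 27.7 kb from the outermost start of that gene. *Flt3* had a gained PU.1 peak 25.4 kb upstream, nearer to the start of *Pan3* (4280 bp), and 3 CEBPA peaks of both lines around the same gene.

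Beyond the 3′ end of *Csf2rb2* lies *Ncf4*, which encodes a subunit of the phagocyte NADPH oxidase. Its start carried a peak of all 4 lists, with the PU.1 centres 16 bp and 23 bp from the outermost start in PU.1- and PU.1+. Further gained PU.1 peaks lay 3.81 kb and 13.7 kb from that start, and a lost one lay 12.6 kb from it. Among the sites described in this stretch of chromosome 15, the only shared PU.1 site was thus the start of *Ncf4*, and none was at *Csf2rb* or *Csf2rb2*.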
